A study of Mus musculus with 24 samples.

Results

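Integrins are the receptors by which endothelial cells hold on to the vascular basement membrane. The 10 integrin subunits described here are 6 α chains (Itga1, Itga2, Itga3, Itga5, Itga6 and Itgav) and 4 β chains (Itgb1, Itgb3, Itgb4 and Itgb5). They were taken by gene symbol from a list of subunits, and all 10 were found among the 18091 genes measured.

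The cells were primary mouse brain microvascular endothelial cells, grown from cortex and midbrain microvessels of C57B/6J wild-type mice on porous transwell inserts, which leave the apical (blood-facing) and the basal (tissue-facing) side open to separate treatment. Each of 5 wild-type groups held 4 libraries, and treatment lasted 24 h. The groups received 50 nM sphingosine-1-phosphate (S1P, a lipid mediator) on the basal side, 50 nM S1P on the apical side, 500 nM of CYM50260 (an agonist of the receptor S1P4) on the apical side, 500 nM of CYM50260 on the basal side, or vehicle. The submitters class basal S1P as opening the endothelial barrier and the other 3 treatments as tightening it, so the integrins were compared between each treatment and vehicle, between the 2 sides of application, and between the opening and the tightening treatments. All groups shared a 48 h exposure to puromycin, which kills many other cell types of the vessel wall, and a pool of 3 inserts per library. The labels give 12 mice per replicate. No source used here says which libraries came from separate pools of mice. The p-values below therefore measure the spread between these libraries, of which an unknown part may be technical. The 4 S1P4 knockout libraries of the series were not used here.

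An integrin is a pair of 1 α and 1 β chain, and the pair decides the ligand. In endothelial cells α1β1 and α2β1 bind collagens, α3β1, α6β1 and α6β4 bind laminins, α5β1 binds fibronectin, and αvβ3 and αvβ5 bind vitronectin and other proteins with an RGD motif. Of the chains described here, Itgb1 encodes the partner shared by most α chains. Talin, kindlin and the actin cytoskeleton join their intracellular tails, through which adhesion strength is set.

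The deposited values, called normalized counts here, are read counts per gene that the authors scaled by a factor for each library and rounded to whole numbers. They summed to between 4.49 and 4.72 M per library after that scaling, so the sums do not give the depth in reads. The 12 endothelial markers listed (Pecam1, Cdh5, Kdr, Cldn5 and others) were all present and summed to between 20145 and 24225 normalized counts per library. The 13 pericyte and smooth muscle markers were also all in the table, at summed levels of 1163 to 4594 and with at most 2 of them at 0 in any library. Fibroblast markers (6 of 8 in the table) summed to 103 to 1097, microglia and leukocyte markers (8 of 10) to 5 to 68, astrocyte and neuron markers (5 of 8) to 78 to 133, and epithelial markers (4 of 7) to 0 to 73. Fewer cells of a type and less RNA per cell cannot be told apart in these bulk samples.

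In 4 libraries the level of Xist differed from that in the other libraries of the same replicate number. Xist, an RNA made only by cells of female mice, had 0 or 1 normalized counts in all 5 libraries numbered 1. These libraries thus showed almost no RNA of female cells, unlike those of the other numbers. The part of sex in differences between numbers was not tested. Among the libraries numbered 2 it had 552 in S1P basal and 1382 in agonist apical, against 2555 in S1P apical, 2507 in agonist basal and 2251 in vehicle. Replicate 3 of S1P apical had 525, where the other libraries numbered 3 had 1063 to 1608. Replicate 4 of S1P apical had 1417, where the other libraries numbered 4 had 173 to 244. The differences with the smallest p-values are given with and without these 4 libraries, which were singled out by Xist alone.

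The most abundant subunit was Itgb1, and the least abundant was Itgb5. Levels were set against each other per kilobase of exon, since a long transcript collects more reads. In vehicle cells Itgb1 averaged 566 ± 50.4 normalized counts per kilobase (SD, n = 4 here and for each group mean below), followed by Itga5 at 389 ± 11.8, Itga3 at 308 ± 30.1, Itga6 at 272 ± 19.2 and Itgb3 at 256 ± 30.4. A step below came Itgav at 134 ± 32.1 and Itga1 at 120 ± 16.8. Itgb4 stood at 73.6 ± 13.1, Itga2 at 55.9 ± 11.8 and Itgb5 at 33.1 ± 20.7 normalized counts per kilobase. Per kilobase, Itgb1 stood above 99.9% of the 12243 genes with an exon length and a mean of at least 10 normalized counts, Itga5 above 99.2% and Itgb5 above 33.3%.

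**Figure D1:**
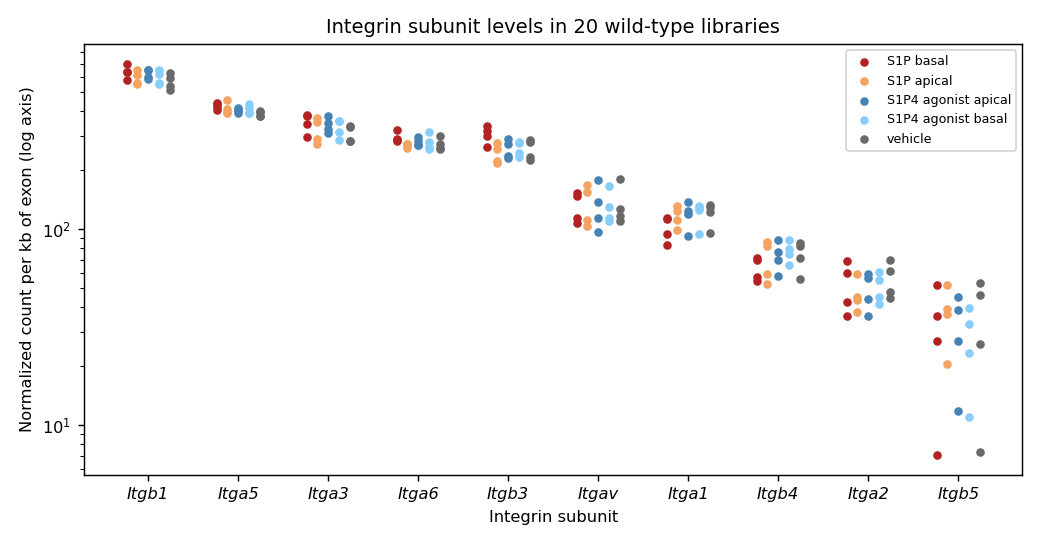
Normalized count per kilobase of exon (log axis) of the 10 integrin subunits in 20 wild-type libraries, 1 point per library, coloured by group. Itgb1 lies highest in all 20 libraries, the 5 groups overlap for nearly every subunit, and Itgb5 is the most scattered.

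Over all 20 libraries the order was firm at the top and loose further down. Itgb1 exceeded Itga5, Itga5 exceeded Itga3, Itga3 exceeded Itga6 and Itgb3 exceeded Itgav in 20 of 20 libraries each. Itga1 exceeded Itgb4 in 20 of 20 as well. Itga6 exceeded Itgb3 in 15, Itgb4 exceeded Itga2 in 17 and Itga2 exceeded Itgb5 in 13. Itgav exceeded Itga1 in only 10, so these neighbours did not differ beyond their spread. With basal S1P the means of Itgb3 (304 ± 31.3 per kilobase) and Itga6 (294 ± 17.3) stood in the other order than in vehicle, where Itgb3 was the lower, and their libraries overlapped.

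No integrin subunit was called in any of the 7 comparisons at an adjusted p under 0.05 (limma on log2(value + 1) over all 12249 tested genes, Benjamini-Hochberg adjusted, with no term for replicate number). All 10 subunits were among the tested genes, and for comparison 0.0245% of tested genes were called for basal S1P against vehicle, 0.0245% for basal against apical S1P and 0.049% for basal S1P against the tightening treatments. In the other 4 comparisons 0% were called. At an unadjusted p under 0.05, 3 of 10 subunits passed for basal S1P against vehicle, where 5.22% of tested genes passed. These were Itgb3, Itga5 and Itgb1. Without the 4 libraries with an unlike Xist level 1 of 10 passed, Itgb3, where 466 of 12249 tested genes did. Without S1P basal replicate 2 and S1P apical replicate 3 alone 2 of 10 passed, Itgb3 and Itga5, where 429 of 12249 did. For basal against apical S1P 1 of 10 passed, where 4.01% of tested genes did, and for basal S1P against the tightening treatments 1 of 10 passed, where 5.63% did. Both times the subunit was Itgb3. No subunit passed for apical S1P, apical agonist or basal agonist against vehicle or for basal against apical agonist, where 0.996%, 1.09%, 0.31% and 0.498% of tested genes did.

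**Figure D2:**
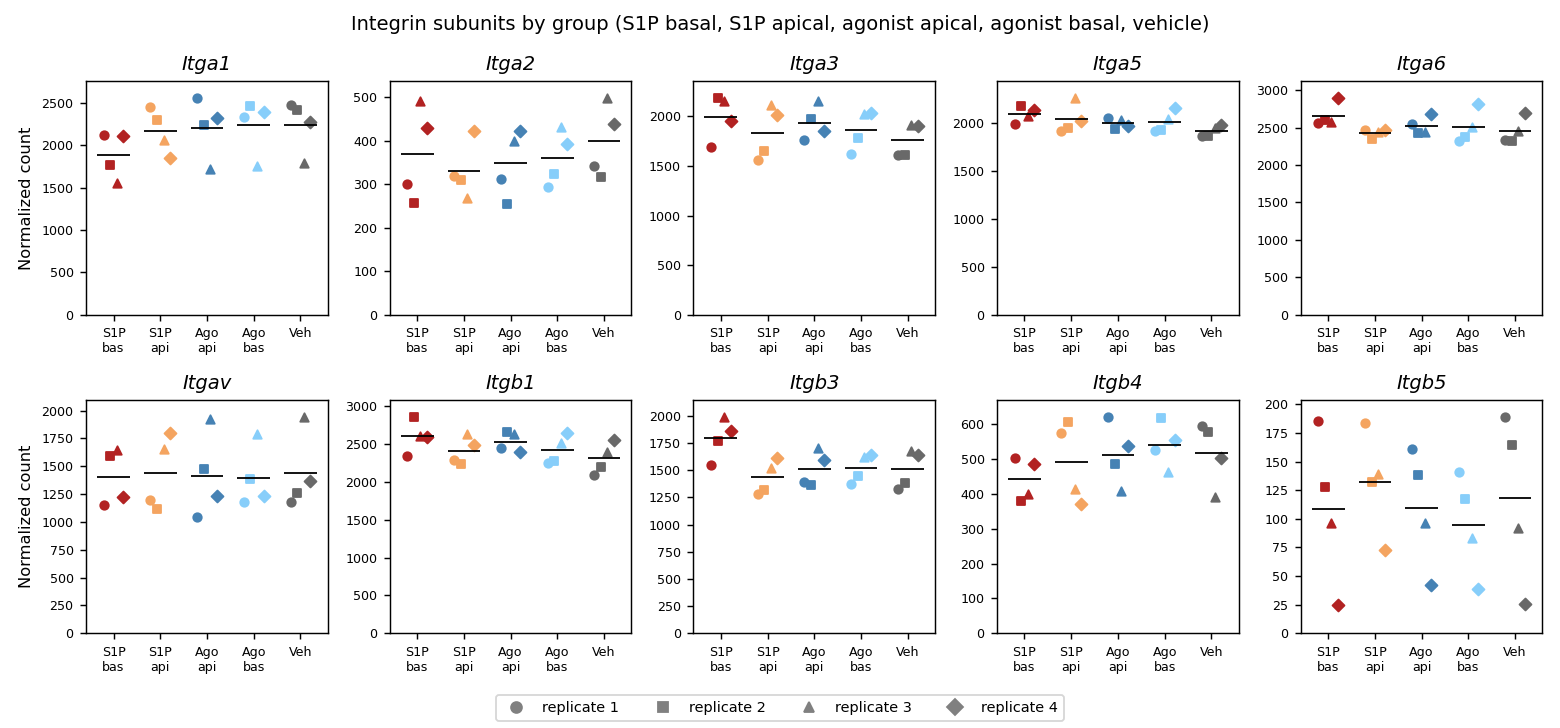
Normalized count of each integrin subunit by group, with the vertical axis from 0. Each point is 1 library, its shape gives the replicate number and the black bar is the mean of 4 libraries; Itgb3 is highest on average in S1P basal, and the replicate numbers of Itgb5 stand in almost the same order in every group.

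Among the β chains, Itgb3 stood out by the smallest p-values. Itgb3 (ENSMUSG00000020689, chr11:104608000-104670476 on mm10, plus strand, 5901 bases of exon) encodes the β3 chain, which pairs with αv in endothelium. It had 1553, 1772, 1992 and 1861 normalized counts in the 4 S1P basal libraries, against 1328, 1380, 1680 and 1643 in the vehicle libraries. Of the 4 S1P basal libraries, 3 lay above every vehicle library, and replicate 1 lay within the vehicle range. The mean was 1795 ± 185 with basal S1P and 1508 ± 179 with vehicle, a log2 difference of 0.25 ± 0.10 (SE; 95% interval 0.04 to 0.47; unadjusted p = 0.0250, adjusted p = 0.756 by limma).

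With the other treatments the mean of Itgb3 was closer to vehicle. It had 1279, 1322, 1521 and 1616 normalized counts with apical S1P, 1389, 1365, 1706 and 1596 with apical agonist, and 1370, 1449, 1621 and 1643 with basal agonist. The log2 difference from vehicle was -0.07 ± 0.10 for apical S1P (95% interval -0.29 to 0.15), 0.01 ± 0.10 for apical agonist (-0.21 to 0.22) and 0.02 ± 0.10 for basal agonist (-0.20 to 0.23). Between basal and apical agonist the difference was 0.01 ± 0.10.

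The estimated difference of Itgb3 was also positive between the 2 sides of S1P application. Basal minus apical S1P was 0.32 ± 0.10 on the log2 scale (unadjusted p = 0.00573, adjusted p = 0.828 by limma), with means of 1795 ± 185 and 1435 ± 160 normalized counts. Basal S1P minus the mean of the 3 tightening treatments was 0.27 ± 0.08 (unadjusted p = 0.00511, adjusted p = 0.517 by limma). Without the 4 libraries with an unlike Xist level, the 3 log2 differences of Itgb3 were 0.26 from vehicle, 0.46 from apical S1P and 0.30 from the tightening treatments, with adjusted p-values of 0.998, 0.620 and 0.515 by limma. These comparisons share the S1P basal libraries and are not independent. Pericyte and smooth muscle marker sums were 1209 to 3963 in S1P basal, 2446 to 4594 in S1P apical and 1292 to 4469 in vehicle libraries, and microglia and leukocyte marker sums were 5 to 29, 9 to 68 and 7 to 51 in the same groups. Their part in the result was not tested.

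**Figure D3:**
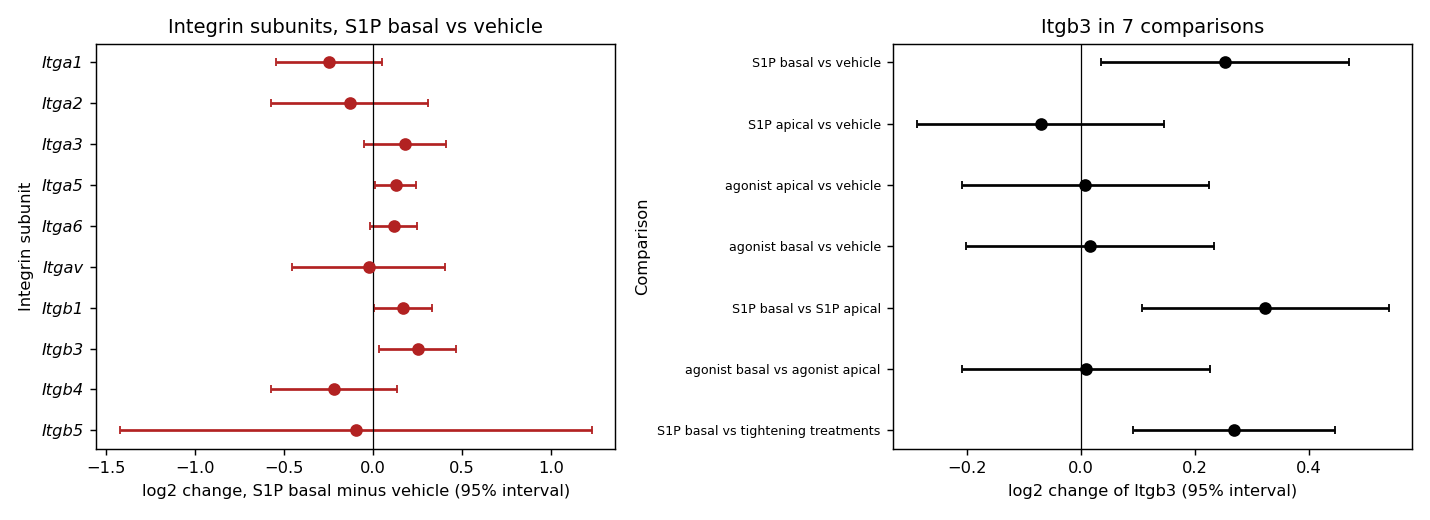
Left, log2 difference of each integrin subunit between S1P basal and vehicle; right, log2 difference of Itgb3 in 7 comparisons, with the first-named group minus the second. Points are limma estimates over 20 libraries and bars are 95% intervals; on the right, the 3 comparisons with S1P basal lie at 0.25, 0.32 and 0.27, and the other 4 lie near 0.

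Itgb1 (ENSMUSG00000025809, chr8:128685654-128733200, plus strand, 4081 bases of exon) encodes the β1 chain. It had 2345, 2855, 2599 and 2591 normalized counts with basal S1P, against 2092, 2194, 2396 and 2552 with vehicle. All but the first of the S1P basal libraries lay above the vehicle range. The log2 difference was 0.17 ± 0.08 (unadjusted p = 0.0402, adjusted p = 0.756 by limma). The highest of these counts, 2855, belongs to S1P basal replicate 2, and without the 4 libraries with an unlike Xist level the difference of Itgb1 was 0.12 (unadjusted p = 0.131 by limma). With apical agonist the difference from vehicle was 0.13 ± 0.08, the smallest unadjusted p of any subunit in that comparison (0.0986 by limma), and with basal agonist it was 0.07 ± 0.08.

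Itgb5 (ENSMUSG00000022817, chr16:33829665-33949338, plus strand, 3553 bases of exon) encodes the β5 chain, an alternative partner of αv. It had 185, 128, 96 and 25 normalized counts with basal S1P, 184, 132, 139 and 73 with apical S1P, and 189, 164, 92 and 26 with vehicle. Apical agonist libraries had 161, 138, 96 and 42, and basal agonist libraries had 141, 117, 83 and 39. In each group replicate 1 was highest and replicate 4 lowest, and the groups overlapped. Treatment differences carried wide errors: -0.09 ± 0.63 for basal S1P and 0.42 ± 0.63 for apical S1P against vehicle, and -0.52 ± 0.63 for basal against apical S1P, all on the log2 scale.

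Itgb4 (ENSMUSG00000020758, chr11:115974709-116008412, plus strand, 7015 bases of exon) encodes the β4 chain, the laminin-binding partner of α6 that anchors intermediate filaments. It had 502, 380, 399 and 487 normalized counts with basal S1P, against 594, 577, 392 and 502 with vehicle, a log2 difference of -0.22 ± 0.17 with overlapping groups. Against the tightening treatments it was -0.21 ± 0.14. The opposite-strand gene B230344G16Rik overlaps 7.66% of the exon bases of Itgb4. The sources used here do not say whether counting used the strand, so reads from that overlap cannot be assigned with certainty.

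Among the α chains, the fibronectin receptor chain Itga5 varied least. Itga5 (ENSMUSG00000000555, chr15:103344286-103366763, minus strand, 4933 bases of exon) ranged from 1867 to 2259 normalized counts over the 20 libraries, 1.21-fold from lowest to highest. It had 1995, 2178, 2080 and 2134 with basal S1P, against 1867, 1870, 1951 and 1982 with vehicle. Every S1P basal library lay above every vehicle library, as was the case in one or the other direction for 2.11% of tested genes. Apart from Itga5 here and Itga6 between the 2 sides of S1P, the groups of every subunit overlapped in all 7 comparisons. Groups did not overlap for 1.32% of tested genes with apical S1P, 0.678% with apical agonist and 0.588% with basal agonist against vehicle, for 0.433% between the agonist sides and for 0.253% between basal S1P and the tightening treatments. The log2 difference of Itga5 was 0.13 ± 0.05 (unadjusted p = 0.0297, adjusted p = 0.756 by limma), and 0.11 without the 4 libraries with an unlike Xist level (unadjusted p = 0.0510 by limma). All 3 other treatments had means above vehicle too, by 0.09 ± 0.05 with apical S1P, 0.06 ± 0.05 with apical agonist and 0.07 ± 0.05 with basal agonist, all with overlapping groups and unadjusted p-values of 0.130, 0.290 and 0.220 by limma.

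Itgav (ENSMUSG00000027087, chr2:83724397-83806916, plus strand, 10744 bases of exon) encodes the αv chain. It had 1153, 1589, 1646 and 1228 normalized counts with basal S1P, against 1183, 1261, 1944 and 1364 with vehicle. The groups overlapped, and the log2 difference was -0.02 ± 0.20. The opposite-strand gene Gm13684 covers 5.90% of its exon bases, with the same uncertainty as for Itgb4. Per kilobase, Itga5 exceeded Itgav by 3.32 ± 0.53 times with basal S1P and by 3.00 ± 0.56 times with vehicle. Itgb3 exceeded Itgav by 2.36 ± 0.32 times with basal S1P and by 1.95 ± 0.27 times with vehicle, with ranges of 2.03 to 2.76 and 1.57 to 2.19 that overlapped.

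The laminin receptor chains Itga3 and Itga6 had higher means with basal S1P than with vehicle, with overlapping groups. Itga3 (ENSMUSG00000001507, chr11:95044474-95076801, minus strand, 5710 bases of exon) had 1688, 2182, 2156 and 1955 normalized counts with basal S1P, against 1614, 1608, 1918 and 1899 with vehicle. All but the first of the S1P basal libraries lay above the vehicle range, and the log2 difference was 0.18 ± 0.11 (unadjusted p = 0.120 by limma).

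Itga6 (ENSMUSG00000027111, chr2:71745616-71858416, plus strand, 9025 bases of exon) had 2556, 2604, 2579 and 2890 normalized counts with basal S1P, against 2465, 2347, 2439 and 2463 with apical S1P and 2330, 2327, 2457 and 2696 with vehicle. All 4 S1P basal libraries lay above all 4 S1P apical libraries, as was the case in one or the other direction for 1.4% of tested genes. The log2 difference between the 2 sides was 0.13 ± 0.06 (unadjusted p = 0.0600, adjusted p = 0.999 by limma), and 0.15 without the 4 libraries with an unlike Xist level (unadjusted p = 0.117 by limma). Basal S1P minus vehicle was 0.12 ± 0.06, and basal S1P minus the tightening treatments was 0.10 ± 0.05. Per kilobase the ratio of Itga6 to Itga3 was 0.851 ± 0.111 with basal S1P and 0.884 ± 0.050 with vehicle, and the ratio of Itga6 to its partner Itgb4 was 4.73 ± 0.59 with basal S1P and 3.81 ± 0.87 with vehicle.

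Both collagen receptor chains had lower means with basal S1P than with vehicle, with overlapping groups. Itga1 (ENSMUSG00000042284, chr13:114953096-115101964, minus strand, 18599 bases of exon) had 2123, 1768, 1554 and 2105 normalized counts with basal S1P, against 2471, 2416, 1786 and 2278 with vehicle. Of the 4 S1P basal libraries, 2 lay below the vehicle range. The log2 difference was -0.25 ± 0.14 from vehicle, -0.20 ± 0.14 from apical S1P and -0.22 ± 0.12 from the tightening treatments (unadjusted p = 0.100, 0.177 and 0.0734 by limma). Gm49395, on the same strand, covers 3.68% of the exon bases of Itga1, so the split of those reads is uncertain.

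Itga2 (ENSMUSG00000015533, chr13:114833081-114932100, minus strand, 7133 bases of exon) lies beside Itga1 on the chromosome. It had 302, 258, 493 and 429 normalized counts with basal S1P, 320, 310, 269 and 423 with apical S1P, and 342, 317, 498 and 439 with vehicle. Its mean was below vehicle with every treatment. The log2 differences were -0.13 ± 0.21 with basal S1P, -0.27 ± 0.21 with apical S1P, -0.20 ± 0.21 with apical agonist and -0.14 ± 0.21 with basal agonist. Every 95% interval included 0, and all differences were set against the same 4 vehicle libraries. Without replicate 2 of S1P basal, the difference with basal S1P was 0.03.

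Over the 10 subunits, 5 had higher and 5 lower means with basal S1P than with vehicle, with a median log2 difference of 0.05, beside 0.00 over all tested genes. The 6 α chains summed to 1.31 ± 0.03 times the 4 β chains per kilobase with basal S1P and to 1.38 ± 0.03 times with vehicle, with ranges of 1.28 to 1.35 and 1.34 to 1.42 that overlapped. Apical agonist gave log2 differences from -0.20 (Itga2) to 0.14 (Itga3), and basal agonist from -0.14 (Itga2) to 0.08 (Itga3).

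For 9 of 10 subunits more of the variance lay between replicate numbers than between treatment groups. Between-number differences held 86.5% of the variance of Itgb5 over the 20 libraries and between-group differences 5.02%. For Itgav the shares were 69.2% and 0.312%. Over all tested genes the median shares were 42.9% for number and 13.9% for group. Itga5 was the one subunit with more variance between groups (32.9%) than between numbers (25.1%), and Itgb3 had the largest share between groups, at 40.5%, beside 54.5% between numbers. Itgav averaged 1791 ± 142 normalized counts in the 5 libraries numbered 3, where the other numbers had means of 1150 to 1371. In the same libraries numbered 3, Itga1 averaged 1774 ± 185, where the other numbers had means of 2186 to 2384. Itgb5 averaged 172, 136, 101 and 41.0 in the libraries numbered 1 to 4.

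Itgb5 moved with the genes of mural cells, the contractile cells that wrap microvessels. Across the 20 libraries Itgb5 correlated with the summed pericyte and smooth muscle markers at r = 0.97 and with the summed fibroblast markers at r = 0.83 (Pearson, on the log2 scale, as a description of libraries that share replicate numbers). Itga6 ran the other way, with r = -0.81 to the pericyte and smooth muscle sum. Itgb3 had r = -0.63 to that sum and r = -0.87 to the microglia and leukocyte sum. Itgb5 had r = 0.73 to the microglia and leukocyte sum and r = 0.77 to the epithelial sum. Both of these sums were low, at 5 to 68 and 0 to 73 normalized counts per library. The summed pericyte and smooth muscle markers were 3691 to 4594 in libraries numbered 1 and 1163 to 1292 in those numbered 4 other than S1P apical, which had 2446. Rgs5, a pericyte marker, had 253 to 402 normalized counts in the libraries numbered 1 and 26 to 47 in those numbered 4. What part cells other than endothelium had in the level of Itgb5 was not tested.

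**Figure D4:**
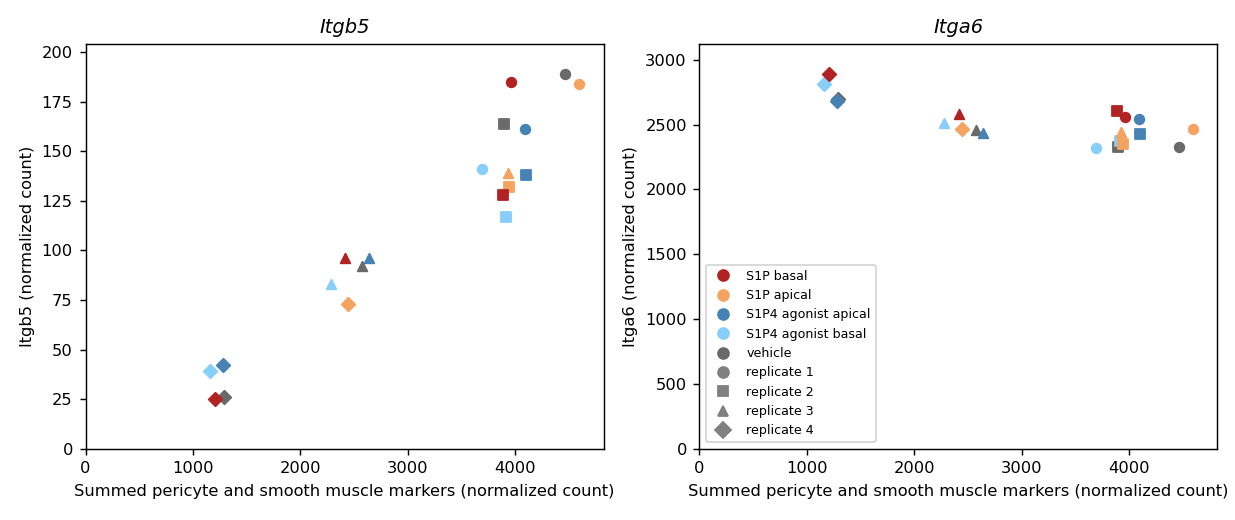
Itgb5 (left) and Itga6 (right) against the summed normalized count of 13 pericyte and smooth muscle markers, 1 point per library, coloured by group and shaped by replicate number. Itgb5 spans 25 to 189 normalized counts along with the marker sum, and Itga6 is highest where the sum is lowest.

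The subunits fell into sets that varied together across libraries. The closest pair was Itga3 and Itgb1 (r = 0.905, n = 20 libraries), the chains of α3β1, followed by Itga1 and Itgb4 (r = 0.896), which are not known as partners. Itga5 and Itgb1, the chains of α5β1, had r = 0.799, and Itga3 and Itgb3 had r = 0.788. The strongest opposite pairs were Itgav with Itgb4 (r = -0.851) and Itgav with Itga1 (r = -0.831). These are descriptions over libraries that share treatment groups and replicate numbers, and of the 45 pairs of subunits 23 had a positive r.

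**Figure D5:**
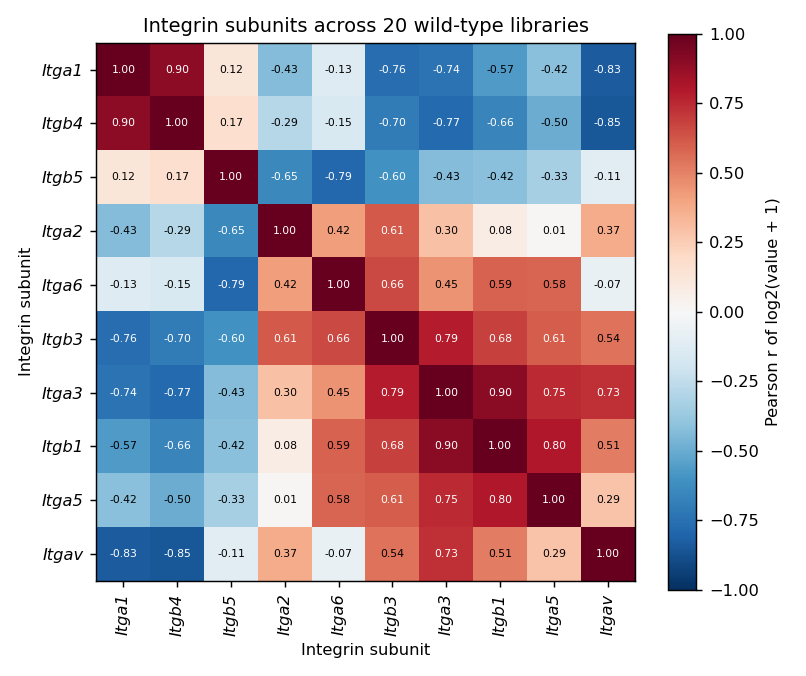
Pearson correlation of log2(value + 1) between each pair of integrin subunits across 20 wild-type libraries, from -1 (blue) to 1 (red). A block with Itga3, Itgb1, Itga5 and Itgb3 is positive throughout, and Itga1 and Itgb4 form a pair that is negative to Itgav.

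Promoters are shown for Itga3, Itgb1 and Itga5, which varied together, and for Itga1, which ran opposite to them. RefSeq (GRCm38.p6) gave a promoter for 7 of the 10 subunits, and Itga6, Itgb3 and Itgb4 had no entry. Each line holds the 250 bases before a transcription start, 5′ to 3′ on the strand of the gene, and capitals mark the GC box GGGCGG on either strand (CCGCCC on the other). For Itga3 it is the upstream one of its RefSeq starts.
Itgb1, chr8:128685404-128685653, plus strand: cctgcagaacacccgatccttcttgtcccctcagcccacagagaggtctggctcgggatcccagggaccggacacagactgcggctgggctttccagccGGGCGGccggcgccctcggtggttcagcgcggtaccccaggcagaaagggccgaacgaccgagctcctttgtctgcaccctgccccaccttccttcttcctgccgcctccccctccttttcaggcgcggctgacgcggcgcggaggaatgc
Itga3, chr11:95076715-95076964, minus strand: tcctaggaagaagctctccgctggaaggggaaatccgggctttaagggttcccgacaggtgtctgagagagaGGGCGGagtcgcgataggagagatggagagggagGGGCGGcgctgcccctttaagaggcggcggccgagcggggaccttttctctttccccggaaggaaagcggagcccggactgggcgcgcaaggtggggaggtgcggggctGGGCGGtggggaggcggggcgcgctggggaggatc
Itga5, chr15:103366792-103367041, minus strand: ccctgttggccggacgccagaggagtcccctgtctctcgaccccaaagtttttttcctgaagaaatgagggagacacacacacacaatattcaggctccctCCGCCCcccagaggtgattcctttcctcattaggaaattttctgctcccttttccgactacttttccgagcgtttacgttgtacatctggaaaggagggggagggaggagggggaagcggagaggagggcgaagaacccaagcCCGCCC
Itga1, chr13:115101965-115102214, minus strand: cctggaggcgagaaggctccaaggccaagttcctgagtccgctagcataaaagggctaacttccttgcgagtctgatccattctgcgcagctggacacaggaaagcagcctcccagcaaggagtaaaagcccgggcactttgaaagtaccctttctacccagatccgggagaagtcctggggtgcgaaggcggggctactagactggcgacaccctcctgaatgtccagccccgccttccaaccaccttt

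The GC box occurred 3 times before the Itga3 start, 2 times before that of Itga5, 1 time before that of Itgb1 and 0 times before that of Itga1. Of the subunits whose promoters are not shown, Itgb5 had 3, with r = -0.43 to Itga3. Itgav had 0, with r = 0.73 to Itga3, and Itga2 had 0. The GC box occurred in 32.7% of all 32817 RefSeq mouse promoter windows of the same length. The letters GGAATG, a TEAD motif, were found before the Itgb1 start alone among the 4 sequences and in 12.6% of all windows, on either strand. The AP-1 letters TGANTCA were in none of the 4 and in 6.75% of all windows. A match is a description of letters in this window. GC content was 68.0% for Itgb1, 67.6% for Itga3, 55.6% for Itga5 and 57.6% for Itga1, beside a median of 52.4% over all windows.

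The genes whose levels ran closest to each subunit across the 20 libraries were named by the highest Pearson r among all other tested genes. Itga3 ran closest to Wdr1 and Flna (r = 0.969 each), of which Flna encodes filamin A, an actin crosslinker that binds β integrin tails. Itgb1 ran closest to Calu (r = 0.960) and Tpm4 (r = 0.954), the last an actin-binding tropomyosin. Itga5 ran closest to Ckap4 (r = 0.926) and Rpn1 (r = 0.880), both endoplasmic reticulum proteins. Itga6 ran closest to Igfbp3 (r = 0.956) and Jup (r = 0.949), which encodes the junction protein plakoglobin.

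Itgb5 ran closest to Heyl (r = 0.981) and Des (r = 0.980), of which Heyl is a Notch target and Des encodes the muscle and pericyte filament desmin and is itself on the pericyte and smooth muscle marker list. Itgb3 ran closest to Nars (r = 0.952) and Sigirr (r = 0.942), and Itgav to Zmat3 (r = 0.963) and Rbm18 (r = 0.952). Itga1 ran closest to Vsig10 (r = 0.971) and Col4a3bp (r = 0.969). Itgb4 ran closest to Bcor (r = 0.959) and to the proteoglycan gene Vcan (r = 0.956), and Itga2 to Arrdc4 (r = 0.935) and Acp2 (r = 0.934).

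Of 18 further integrin genes listed, 12 were in the table and 6 passed the level filter. Itga9 averaged 557 normalized counts over the 20 libraries, Itga8 399, Itga4 342, Itga7 105, Itga2b 17.4 and Itga10 15.4. The others in the table (Itga11, Itgae, Itgax, Itgb2, Itgb7 and Itgb8) averaged at most 5.70 normalized counts, among them Itgb2, the β chain of leukocytes. None of the 6 tested was called in any comparison. Itga8, whose product pairs with β1 and binds nephronectin and other RGD proteins, averaged 327 ± 28.4 normalized counts with basal S1P and 436 ± 35.5 with vehicle, a log2 difference of -0.41 ± 0.09 (unadjusted p = 0.000238, adjusted p = 0.324 by limma). Itga7, a laminin receptor chain known from muscle, ranged from 11 to 215 across libraries.

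Among the ligands, the basement membrane genes Hspg2 (perlecan), Col4a1 (a collagen IV chain) and Lamc1 (a laminin chain) averaged 7023, 5258 and 3699 normalized counts over the 20 libraries. Of 37 matrix ligand genes listed 33 were tested, and 0 were called for basal S1P against vehicle, with 21 means higher and 12 lower and a median log2 difference of 0.09. With the smallest p-values came Tnc (tenascin C), at 2459 ± 324 normalized counts with basal S1P and 1798 ± 145 with vehicle (log2 difference 0.44 ± 0.14, adjusted p = 0.756 by limma), Lamb1 (0.14 ± 0.06) and Lamb2 (-0.23 ± 0.10), both laminin β chains. Of 41 adhesion complex genes 40 were tested and 0 called, with 28 means higher and 12 lower and a median of 0.09. There the smallest p-values belonged to Kank1, a talin-binding protein at the rim of adhesions (-0.22 ± 0.09), to Parvb (β-parvin, 0.13 ± 0.06) and to Tln1 (talin 1, 0.13 ± 0.06), with adjusted p = 0.756 for each by limma. Against the same vehicle libraries, 29, 31 and 30 of the 40 adhesion complex genes had higher means with apical S1P, apical agonist and basal agonist. For the 33 matrix ligand genes these counts were 21, 23 and 23. Over all tested genes, 50.0% had a higher mean with basal S1P, 49.8% with apical S1P, 48.5% with apical agonist and 52.5% with basal agonist. No gene of these lists or of the marker lists was called in any of the 7 comparisons, in which at most 6 of the 12249 tested genes were.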

How the data were processed

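RNA of 24 libraries was sequenced from a stranded mRNA kit, and the 20 wild-type libraries were used here. Per the submitters' processing notes, the mm10 build, STAR 2.7.3a, Trimmomatic 0.38, FastQC, DESeq2 1.26.0 and, from Subread, featureCounts 1.6.5 were used, in roles the notes do not state. Nothing used here states the strand setting or how duplicate reads were handled. The authors deposited 1 signal value per gene and library, in whole numbers. The values show that these are counts scaled by a single factor in each library and then rounded. A count model was therefore not used.

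Genes with a mean of at least 10 over 20 libraries were tested (12249 of 18091). Group means of log2(value + 1) were estimated by limma 3.58.1 (R 4.3.3) in 1 model of the 20 libraries, its prior variance following the mean. Benjamini-Hochberg adjustment covered all tested genes. Differences on the log2(value + 1) scale understate those of low genes. The procedure was tested on simulated counts. These held no differences between replicate numbers, so that test does not cover the spread between numbers seen here. Exon lengths came from the GENCODE M21 annotation, as the union of exons.

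The 10 members and the gene lists were chosen with earlier results of these data known. Named genes were all members, the 3 genes of each list with the smallest p for basal S1P against vehicle together with any called gene, the 2 other genes most correlated with each member, and other integrins with a mean of at least 10; the adjusted p-values of the leading marker genes in that comparison started at 0.756.

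Replicate numbers come from the labels. Same-numbered libraries deviated together (every r over 0.1, lowest 0.140) in the 6 pairs of groups without S1P basal. S1P apical replicate 4 nevertheless correlated better with number 3 (mean r = 0.684 over the other groups) than with its own number (0.274). The pairing by number is therefore not certain for S1P apical. A fit with the replicate number as a block called 0 genes in each of the 4 comparisons without S1P basal, as without it. With S1P basal the same-number r were all over 0.1 against agonist apical. In number 2 they were 0.0291 against vehicle, -0.0368 against agonist basal and -0.345 against S1P apical. In numbers 1, 3 and 4 they were 0.583 to 0.805 against vehicle. Not every pair was over 0.1, so no pairing was taken there. The most alike of 190 library pairs had equal values in 11.9% of genes, so no library was counted as a duplicate. Alternatives were the pseudocount, the level filter, 2 other scalings, the block, the compared groups alone, a constant prior variance, each library left out, and the exclusion of libraries with an Xist level unlike their number, the last chosen after seeing the data.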

Additional observations from a re-analysis of the deposited data

Results flagged for a closer look

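One value of the 50 subunit-by-group sets stood far from the others of its group. Replicate 4 of S1P basal had 2890 normalized counts of Itga6, where the other 3 libraries of the group had 2556 to 2604. The gap took 0.856 of the group's range, above the 95% critical value of Dixon's test for 4 samples, a mark that chance gives to about 5% of groups. In the groups agonist apical, agonist basal and vehicle, replicate 4 also had the highest Itga6 count, at 2679, 2810 and 2696.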

How the results depend on the processing

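No subunit was called in any alternative but the replicate block. For S1P basal the same-number correlations with vehicle and S1P apical were not all over 0.1, with replicate 2 the lowest in both. A fit with the replicate block called 47 genes for basal S1P against vehicle, 83 against apical S1P and 137 against the tightening treatments, where the fit without it called 3, 3 and 6. In each it called 1 subunit, Itgb3, at unchanged log2 differences of 0.25, 0.32 and 0.27 (adjusted p = 0.0202, 0.00167 and 0.00117 by limma). Unadjusted p-values under 0.05 for basal S1P against vehicle numbered 6 of 10 subunits with the block and 2 of 10 with the compared groups alone or a constant prior variance, against 3. Of all 12249 tested genes, 2013 passed with the block, 508 with the compared groups alone and 620 with a constant prior variance, against 640. For apical agonist against vehicle, 2 of 10 had an unadjusted p under 0.05 with the block, where 429 of 12249 tested genes did. These were Itgb1 and Itga3 (unadjusted p = 0.0441 and 0.0446, adjusted p = 0.967 for each by limma). Of the 20 libraries, 15 correlated best with their own number, among them S1P basal replicates 1, 3 and 4.

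Fitting the compared groups alone called 0, 1 and 3 genes in these comparisons. Leaving out 1 library at a time gave 2 to 4, 1 to 3 and 3 to 9 genes, and Itgb3 differences of 0.19 to 0.32, 0.27 to 0.39 and 0.22 to 0.34. Basal against apical S1P had 0 called genes without the 4 libraries with an unlike Xist level and 1 without 2 of them (S1P apical replicate 3 and S1P basal replicate 2). The cause of these shifts was not tested.

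Sign changes touched small or noisy differences. With either set of libraries left out, Itga2 was 0.0268 for basal S1P against vehicle. With equal totals, Itgb3 was -0.0127 for apical agonist against vehicle, and without the 4 libraries it was -0.0391 for basal against apical agonist. With single libraries left out, the ranges for basal S1P against vehicle were -0.284 to 0.0268 for Itga2, -0.11 to 0.13 for Itgav and -0.70 to 0.49 for Itgb5. Itgb5 ranged from -0.18 to 0.76 for apical S1P against vehicle and from -0.877 to 0.0687 for basal against apical S1P. Itgb3 ranged from -0.0522 to 0.0619 for apical agonist, from -0.0425 to 0.0705 for basal agonist and from -0.0391 to 0.0681 between the agonist sides. Of 2100 recomputed subunit differences, 111 had the other sign, 91 of them with 1 library left out, and none of those was called.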

Other observations

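Within a replicate number, the S1P basal library had the highest Itgb3 and the highest Itga6 of the 5 groups in all 4 numbers. For comparison, 1.35% of the 12249 tested genes were highest in S1P basal in all 4 numbers, and 0.833% were lowest in all 4. Itga1 was lowest in S1P basal in 3 of 4 numbers. The other 7 subunits were highest in S1P basal in at most 1 number. Ranks within a number assume that the number ties libraries together, and across genes S1P basal replicate 2 correlated better with number 3 (r = 0.381) than with its own number (r = 0.00715).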
